A study of Mus musculus with 16 samples.

Results

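This comparison set all 8 left ventricles that had lost the transcription factor TFEB in cardiomyocytes (cKO) against all 8 control ventricles (WT in the labels), out of 16 libraries in the series. The members were taken from the genotype and surgery labels alone, with 4 libraries in each of 4 groups: WT after sham surgery, WT after transverse aortic constriction (TAC), cKO after sham surgery and cKO after TAC. TAC narrows the aorta and puts the left ventricle under pressure load. The genotype effect was estimated with surgery as a covariate, so each value below is the average of the effect under sham and under TAC. The title of the series asks how TFEB bears on hypertrophy and failure of the heart through lysosomes and mitochondria. Pooling both surgeries asks which genes differ with TFEB loss on average over both loads. A difference in this average need not hold under each surgery. All mice were labelled C57/BL6N and the tissue was the left ventricle, with 4 biological replicates in each group. The Cre line, the floxed allele, age, sex and the time after surgery are not stated in the sources used here, nor whether the WT mice carried Cre or floxed alleles. The deletion is labelled as specific to cardiomyocytes, so the vessels, fibroblasts and immune cells of the tissue are expected to keep the gene.

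TFEB belongs to the MiT/TFE family of basic helix-loop-helix transcription factors, with TFE3, MITF and TFEC. When nutrients are plentiful the kinase mTORC1 phosphorylates it at the lysosome, through Rag GTPases and folliculin, and holds it in the cytosol. On starvation or lysosomal stress it enters the nucleus and binds a palindromic E-box, TCACGTGA, known as the CLEAR motif, at genes of lysosomes and autophagy. In liver and muscle it is also known for driving Ppargc1a and genes of fatty acid oxidation.

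Totals ran from 12946878 to 16347388 counts per library, and levels are given as CPM, counts scaled per library to the same effective total with edgeR's TMM factors. Of 15206 genes tested, a gene was called at an adjusted p under 0.05 (edgeR's quasi-likelihood test, Benjamini-Hochberg adjusted over all genes tested). All libraries held the ventricular and cardiomyocyte transcripts Myl2, Myh6 and Tnnt2 at or above 2876 CPM (scaled by library totals). Atrial transcripts set some WT libraries apart: the atrial light chain Myl7 stood at 0.918, 92.3, 871 and 47.4 CPM in WT sham, at 0.133, 0, 4.66 and 329 CPM in WT TAC, and at or below 3.36 CPM in every cKO library. The atrial markers other than Nppa summed to 698 CPM on average in WT and 132 CPM in cKO (exact permutation within each surgery, two-sided p = 0.00776, adjusted over 11 library properties 0.0427). Single libraries ran from 91.6 to 3030 CPM in WT and from 96.5 to 159 CPM in cKO, so the ranges overlapped. With Nppa included, the atrial markers summed to 1069 CPM in WT and 1170 CPM in cKO and did not pass (exact p = 0.92). Macrophage markers summed to 492 CPM in WT and 724 CPM in cKO, a ratio of 1.47 (exact p = 0.00204, adjusted 0.0224), with WT libraries from 281 to 737 and cKO libraries from 412 to 1142. The summed markers of cardiomyocytes (exact p = 0.200), fibroblasts (0.439) and endothelial and mural cells (0.208), the mitochondrially encoded share of counts (0.100) and the total count (0.266) did not pass, and 0.000408 was the smallest p possible. In bulk tissue, fewer cells of a type and less RNA per cell cannot be told apart.

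Tfeb itself (ENSMUSG00000023990) fell in cKO to 0.356 of the WT value (log2 fold change -1.49, SE 0.16, adjusted p = 5.63e-05). Under sham the 4 WT libraries held 30.9, 37.4, 40.1 and 37.6 CPM and the 4 cKO libraries 10.0, 9.12, 9.68 and 13.0 CPM. Under TAC the WT libraries held 40.0, 34.6, 20.6 and 21.1 CPM and the cKO libraries 14.7, 13.8, 13.0 and 9.37 CPM. Every cKO library was below every WT library, and transcript remained in all 8 of them. Of the 10 tested genes on either side of Tfeb, taken in the order of a GRCm38 annotation, Trem2, a receptor of macrophages, was the single one called (log2 0.87, adjusted p = 0.0251).

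Among the 25 tested genes of the family and its Rag-folliculin regulators, 3 fell and 0 rose, where 4.71% and 4.29% of all tested genes fell and rose. Folliculin (Flcn), which activates Rag GTPases and is itself a known TFEB target, fell by 0.42 on the log2 scale (SE 0.10, adjusted p = 0.0154) from 77.3 ± 10.0 to 57.8 ± 8.32 CPM under sham and from 59.8 ± 9.95 to 44.7 ± 8.61 CPM under TAC (SD, n = 4). Mitf fell by 0.30 (SE 0.09, adjusted p = 0.0379), a call lost in 9 of the 16 fits that each left out a library, with an adjusted p of up to 0.0804 without cKO sham replicate 2. Tfe3, the closest relative of Tfeb in function, had a log2 fold change of -0.02 (SE 0.07) and did not pass. Its libraries spanned 16.6 to 23.1 CPM in WT and 17.2 to 24.5 CPM in cKO.

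Averaged over both surgeries, 1368 of 15206 genes (9.00%) were called, 652 higher in cKO (4.29%) and 716 lower (4.71%), and 3738 had an unadjusted p under 0.05. With libraries scaled by their totals alone, 1400 were called, of which 879 were higher and 521 lower, so the balance between directions depended on the scaling. Most changes were modest: the median size among called genes was 0.46 on the log2 scale, or 1.37-fold, and 186 genes (82 higher and 104 lower) differed by more than 2-fold. The median SE over all tested genes was 0.11 in the pooled fit against 0.16 within sham and 0.16 within TAC. Within sham 178 genes (1.17%) were called, 94 higher (0.618%) and 84 lower (0.552%). Within TAC 271 (1.78%) were called, 91 higher (0.598%) and 180 lower (1.18%), and 1014 of the 1368 were called under neither surgery alone. Those 1014 had a median size of 0.42 (1.34-fold), and the others 0.55 (1.47-fold). The pooled comparison uses the same libraries as the comparisons within each surgery, so these counts describe its reach and are no independent check. In 252 genes (1.66%) the 4 cKO libraries did not overlap the 4 WT libraries under sham or under TAC, in the same direction in both (125 higher, 0.822%, and 127 lower, 0.835%), and 246 of these were called.

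Single libraries moved the count of calls. It was 816 without cKO TAC replicate 2, 851 without WT TAC replicate 3, 876 without cKO sham replicate 2, 895 without cKO TAC replicate 1 and 902 without WT TAC replicate 2, and it rose to 1677 without cKO TAC replicate 3. Leaving out the WT sham and WT TAC libraries with the most atrial transcripts (replicates 3 and 4) gave 1175 calls, 564 higher and 611 lower, of which 987 were among the 1368. Without surgery as a covariate 157 genes were called.

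**Figure D1:**
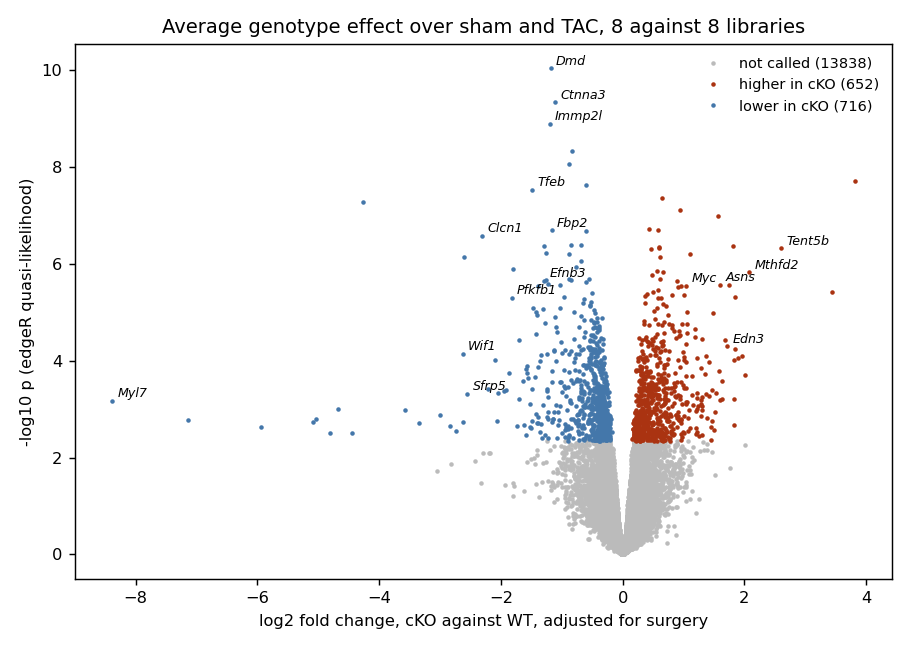
Each point is 1 of 15206 tested genes, with the log2 fold change of cKO against WT adjusted for surgery on the x axis and -log10 of the unadjusted p on the y axis; colours mark the 652 genes called higher and the 716 called lower. Dmd, Ctnna3 and Immp2l stand at the top on the lower side, and the atrial gene Myl7 lies far to the left with a modest p.

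The 3 smallest p-values belonged to genes that fell, and 2 of them, Dmd and Ctnna3, were chosen for naming after their values were seen. Dystrophin (Dmd), which links the cytoskeleton of muscle cells to the matrix, stood at 51.2, 76.9, 82.2 and 82.6 CPM in WT sham against 34.7, 31.7, 26.7 and 31.4 CPM in cKO sham. Under TAC it held 96.9, 89.9, 88.5 and 86.4 CPM in WT and 46.2, 34.4, 37.7 and 46.8 CPM in cKO. The genotypes were apart under both surgeries, and the pooled log2 fold change was -1.18 (SE 0.09, adjusted p = 1.39e-06). Ctnna3, the alpha-T-catenin of the intercalated disc between cardiomyocytes, had means of 17.3 and 8.71 CPM in WT and cKO sham and 17.3 and 7.41 CPM under TAC (log2 -1.10, SE 0.10, adjusted p = 3.5e-06).

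Immp2l, a subunit of the peptidase that trims proteins sorted to the mitochondrial intermembrane space, came next (log2 -1.20, SE 0.11, adjusted p = 6.55e-06). It held 11.0, 12.1, 11.5 and 11.4 CPM in WT sham against 5.74, 6.86, 6.48 and 5.88 CPM in cKO sham. Under TAC WT libraries held 10.9, 13.6, 14.1 and 11.7 CPM and cKO libraries 4.10, 4.04, 4.81 and 4.47 CPM. The log2 fold change was -0.88 under sham and -1.53 under TAC, and the difference had an unadjusted p of 0.00134 and an adjusted p of 0.946.

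These 3 genes are very long. In the GRCm38 annotation they span 2257, 1574 and 931 kb. Of the 128 tested genes that span 500 kb or more, 18 were called lower and 10 higher, or 21.9% in all, against 6.97% of the 4402 genes that span under 10 kb. The share called rose over the bins between, from 9.04% at 10 to 50 kb to 12.9% at 100 to 200 kb, and was 12.6% at 200 to 500 kb. The median level was similar in the longest (7.00 CPM) and shortest genes (7.68 CPM) and higher in the bins between (12.5 to 20.5 CPM). The part of gene length and level in these calls was not tested.

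By a fixed rule, 12 rises and 12 falls were named by size, among called genes of at least 5 CPM whose genotypes did not overlap under either surgery, with predicted genes and pseudogenes skipped. Tent5b, a non-canonical poly(A) polymerase, had the largest rise of these, 6.08-fold (log2 2.60, SE 0.32, adjusted p = 0.000302). It stood at 0.994, 1.57, 1.40 and 0.387 CPM in WT sham against 7.24, 3.95, 8.49 and 8.51 CPM in cKO sham, and at 5.05, 1.38, 2.59 and 3.38 CPM in WT TAC against 26.9, 26.2, 7.69 and 13.1 CPM in cKO TAC. The inward rectifier potassium channel gene Kcnj14 rose 3.37-fold and Edn3, a peptide of the endothelin family, rose 3.29-fold. The naming rule had chosen Edn3 for no overlap under either surgery. Its means were 1.96 and 10.5 CPM under sham and 7.07 and 16.2 CPM under TAC. The genotypes came close under TAC, at 9.37 CPM in WT replicate 1 and 9.43 CPM in cKO replicate 4. Ackr4, a scavenging chemokine receptor, rose 2.15-fold, the epithelial keratin Krt80 rose 2.08-fold, and Svep1, a large extracellular adhesion protein, rose 2.00-fold. Mthfd2, Asns, Myc, Nppb, Ccn2 and Tgfb2, which complete the 12 rises, are described with their groups.

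The muscle chloride channel Clcn1 fell to 0.201 of the WT value (log2 -2.31, SE 0.28, adjusted p = 0.000234), from 10.9, 14.3, 19.7 and 20.6 CPM to 3.91, 2.78, 7.00 and 2.77 CPM under sham and from 4.32, 8.02, 8.68 and 9.33 CPM to 0.505, 0.632, 1.13 and 2.18 CPM under TAC. Efnb3, a ligand of Eph receptors, fell to 0.410 of the WT level, the flippase gene Abca4 to 0.382, Tmem150c to 0.417, the organic cation transporter Slc22a3 to 0.420 and the prolactin receptor Prlr to 0.428. Acot1, which cleaves acyl-CoA in the cytosol, fell to 0.335, but it is nearly identical to neighbouring members of its family and the handling of shared reads is not stated.

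The secreted Wnt inhibitors Wif1 and Sfrp5 fell to 0.162 and 0.170 of the WT level (adjusted p = 0.00524 and 0.0142). Wif1 held 3.14, 11.8, 8.50 and 4.33 CPM in WT sham, 2.92, 4.81, 5.25 and 21.3 CPM in WT TAC, and at most 2.25 CPM in any cKO library. Its highest value was in the WT TAC library with the most atrial transcripts, which was also the highest for Sfrp5 in that group (9.80 CPM). Without the 2 atrial-rich WT libraries the log2 fold changes were -2.08 for Wif1 and -2.01 for Sfrp5, against -2.62 and -2.55 with them, and both were still called. Some of the WT sham libraries that remained also held atrial transcripts. With atrial transcripts other than Nppa as a covariate, Wif1 was still called and Sfrp5 was not.

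**Figure D2:**
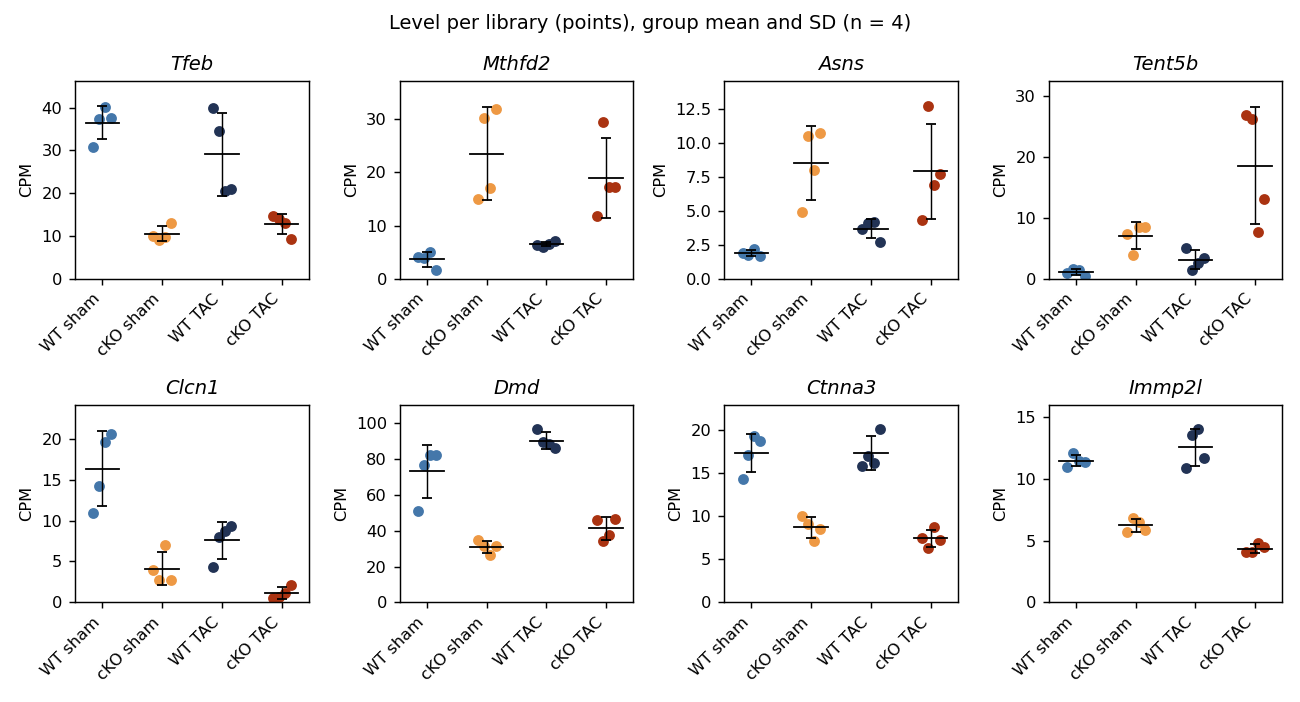
Points are the CPM of single libraries for Tfeb and 7 genes with large changes or the smallest p-values, in the 4 groups of 4 libraries, with bars for the group mean and SD. In each panel the cKO points lie apart from the WT points of the same surgery, below them for Tfeb, Clcn1, Dmd, Ctnna3 and Immp2l and above them for Mthfd2, Asns and Tent5b. Genes named by size were chosen for such a gap.

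The rises included enzymes of serine, one-carbon, asparagine and proline synthesis, of which 4 of 24 tested rose, 0 fell and 20 were not called. That is 16.7% higher, against 4.29% of all tested genes, in a list chosen with earlier results of these data known. These enzymes are known targets of ATF4, the transcription factor of the integrated stress response, which slows translation when amino acids are short or when mitochondria or the endoplasmic reticulum are under stress. ATF4 acts with C/EBP proteins at a composite element, TGATGNAA, and is itself controlled mainly at translation. Called members of these groups that held the motif upstream of their start in RefSeq's promoter table (build GRCm38.p6) are shown by 4 examples, each with up to 30 bases on either side. The windows are chr6:7693210-7693262 (minus strand) for Asns, chr11:120643814-120643881 (minus) for Pycr1, chr2:119351019-119351086 (plus) for Chac1 and chr6:55037941-55038000 (plus) for Gars. Capitals mark the motif, which is read on the opposite strand in Chac1 and Gars.
Asns: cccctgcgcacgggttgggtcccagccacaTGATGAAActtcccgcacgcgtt
Pycr1: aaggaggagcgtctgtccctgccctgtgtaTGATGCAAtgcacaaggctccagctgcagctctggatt
Chac1: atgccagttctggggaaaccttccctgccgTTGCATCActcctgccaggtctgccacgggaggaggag
Gars: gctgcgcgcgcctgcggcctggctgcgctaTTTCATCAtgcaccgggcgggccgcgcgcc

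The motif, searched on both strands from 250 bases before to 50 after each start, was present in 25.0% of 32 promoters of the stress response list, in 38.5% of 13 promoters of cytosolic tRNA synthetases and in 15.0% of 20 promoters of the synthesis list. Among all promoters of tested genes it was present in 2.3% of 13878, among promoters of genes called higher in 3.72% and among those called lower in 2.6%. It was also found at Esrra, Me3 and Cacna1c, which fell. Among stress response members called higher, the motif was in 2 of 7 promoters (28.6%), near the share of the whole list. For the synthetases and the synthesis list it was in 2 of 4 promoters each. The shares of whole lists reflect which genes were listed. Whether the motif bears on the changes in cKO was not tested. Of 116 genes covered by the naming rule, 93 had a promoter in the table.

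Mthfd2, the mitochondrial enzyme that passes one-carbon units from serine into formate, rose 4.21-fold (log2 2.07, SE 0.27, adjusted p = 0.000626). The WT sham libraries held 4.05, 3.81, 5.10 and 1.62 CPM and the cKO sham libraries 15.1, 30.3, 17.0 and 31.9 CPM. The WT TAC libraries held 6.38, 6.04, 6.54 and 7.11 CPM and the cKO TAC libraries 11.7, 29.4, 17.2 and 17.4 CPM. Every cKO library exceeded every WT library. Asparagine synthetase (Asns) rose 3.04-fold (log2 1.60, SE 0.24, adjusted p = 0.000846), from 1.91, 1.72, 2.22 and 1.70 CPM to 4.89, 10.5, 8.04 and 10.7 CPM under sham and from 3.65, 4.13, 4.21 and 2.68 CPM to 4.35, 12.7, 6.88 and 7.74 CPM under TAC. The 2 genotypes of Asns came close under TAC, at 4.21 and 4.35 CPM.

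Phgdh, which opens serine synthesis, rose 2.79-fold (log2 1.48, SE 0.25, adjusted p = 0.00187) and Pycr1, the last enzyme of proline synthesis in mitochondria, rose 1.97-fold (log2 0.98, SE 0.17, adjusted p = 0.00256). Both were low, with means of 0.849 and 3.83 CPM for Phgdh in WT and cKO sham and 2.18 and 4.23 CPM under TAC. The serine enzyme Psat1 (log2 0.48, SE 0.34) and the mitochondrial serine hydroxymethyltransferase Shmt2 (-0.03, SE 0.06) did not pass, and the median over the 24 was 0.11 against -0.01 over all tested genes. The estimates for Mthfd2, Asns and Phgdh were 2.69, 2.17 and 2.16 under sham and 1.53, 1.11 and 0.96 under TAC, and the differences had unadjusted p-values of 0.0246, 0.0209 and 0.0140 and an adjusted p of 0.946 each.

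Of 27 tested genes of the integrated stress response, 7 rose and 1 fell (29.6% called, against 9.00% of all tested genes, median log2 0.21). Chac1, which degrades glutathione, rose 2.27-fold from 6.68 ± 1.82 to 17.7 ± 3.78 CPM under sham and from 4.74 ± 2.25 to 9.24 ± 2.41 CPM under TAC (SD, n = 4, adjusted p = 0.00294). The pseudokinase Trib3, a feedback inhibitor of the pathway, rose 1.92-fold, the transcription factor Atf5 1.44-fold, the translation repressor Eif4ebp1 1.26-fold, and the leucine transporter Slc7a5 by 0.84 on the log2 scale. Stc2, a secreted glycoprotein, rose by 0.61 and Gdf15, a stress hormone that acts on appetite, by 1.39, whereas the early response factor Atf3 fell by 1.41. The message of Atf4 did not pass (log2 0.05, SE 0.07, adjusted p = 0.735). Atf3, the single fall of the list, was not called without WT TAC replicate 3 or 4, cKO TAC replicate 1 or 2, or cKO sham replicate 1, 2 or 4.

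Of 20 cytosolic tRNA synthetases, which charge tRNAs with amino acids, 7 rose and 0 fell, all by less than 1.3-fold: Mars (1.22-fold, adjusted p = 0.00767), Iars (1.25-fold), Gars (1.19-fold), Sars (1.20-fold), Eprs, Nars and Rars. That is 35% called, against 9.00% of all tested genes. Mars held 45.7 to 52.5 CPM in WT sham and 59.3 to 65.2 in cKO sham, and 45.3 to 47.6 CPM in WT TAC and 48.8 to 61.0 in cKO TAC. These small shifts rested on most libraries. The count was 3 without WT TAC replicate 2 or 3, WT sham replicate 2 or 4, cKO TAC replicate 2, or cKO sham replicate 2 or 4, and 4 without WT TAC replicate 4, cKO TAC replicate 1 or 4, or the pair of atrial-rich WT libraries. In the list of folding and stress genes of the endoplasmic reticulum 2 of 24 rose (8.33%, near the 9.00% of all tested genes): P4hb, a disulfide isomerase and prolyl hydroxylase subunit (1.32-fold, adjusted p = 0.00109), and the sensor Atf6 (1.22-fold). Heat shock proteins had 1 fall (Dnajb1) and 0 rises among 20 (5% called, against 9.00% of all tested genes). Without 1 library, 1 rose (WT sham replicate 2, cKO TAC replicate 4 or cKO sham replicate 3) or 2 did (WT TAC replicate 1 or cKO TAC replicate 3).

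The lists of fatty acid oxidation, the citric acid cycle and amino acid and ketone breakdown held many falls, in 61.1%, 48.3% and 52.2% of their tested genes. Of all tested genes 4.71% fell, and the glucose list moved both ways. In the order given, 14, 9 and 7 genes were called lower within TAC, and 0, 1 and 1 within sham. Within sham 1 amino acid and ketone gene was called higher. Of all tested genes 1.18% were called lower within TAC and 0.552% within sham. The heart draws most of its energy from fatty acids, which are activated to acyl-CoA, carried into mitochondria and shortened by beta-oxidation. Of 36 tested genes of fatty acid uptake and oxidation, 22 fell and 0 rose, with a median of -0.35 against -0.01 over all tested genes. The lowest count without any single library was 15 and the highest 23, and 1 gene rose without WT sham replicate 3 and 2 without cKO sham replicate 1. Hadh, a dehydrogenase of the cycle for short and medium chains, fell to 0.652 of the WT value (log2 -0.62, SE 0.11, adjusted p = 0.00322), from 511, 563, 504 and 579 CPM to 405, 360, 433 and 435 CPM under sham and from 321, 444, 461 and 394 CPM to 164, 216, 300 and 231 CPM under TAC. Decr1, needed for unsaturated fatty acids, fell to 0.687 (adjusted p = 0.00151), Acsl1, which activates long chains, to 0.724 (0.00244), and Acads to 0.688 (0.00384). The genotypes of Hadh, Decr1 and Acsl1 did not overlap under either surgery. Other falls included Acaa2 (log2 -0.64), Eci1 (-0.54), Etfdh (-0.49), Acadm (-0.43), Acadvl (-0.43), Cpt2 (-0.41) and Hadha (-0.40).

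Breakdown of branched-chain amino acids and ketones followed the same direction, with 12 of 23 tested genes lower and 0 higher (median log2 -0.32, and 9 to 13 lower without any single library). Bckdhb, part of the enzyme complex that commits leucine, isoleucine and valine to oxidation, fell to 0.621 of the WT value (log2 -0.69, SE 0.09, adjusted p = 0.000302). It held 74.2, 75.9, 57.1 and 74.9 CPM in WT sham against 47.5, 34.7, 48.2 and 43.9 CPM in cKO sham, and 33.9, 41.6, 47.3 and 43.7 CPM in WT TAC against 24.5, 21.3, 30.7 and 27.4 CPM in cKO TAC. Its partner subunits Dbt and Bckdha fell to 0.680 and 0.727, and Oxct1, which lets the heart burn ketones, fell to 0.749 (adjusted p = 0.00277). All 4 genes were free of overlap between genotypes under both surgeries.

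In the citric acid cycle and pyruvate list 14 of 29 fell and 0 rose (median log2 -0.27). Me3, the mitochondrial malic enzyme, fell to 0.727 (adjusted p = 0.00185), and Ogdh and Dlst, both of the 2-oxoglutarate dehydrogenase complex, fell to 0.751 and 0.746. Pdp1, the phosphatase that activates pyruvate dehydrogenase, fell to 0.692, with the larger estimate under sham (-0.69) than under TAC (-0.37) and an unadjusted p of 0.149 for the difference. The count of falls was 8 without WT TAC replicate 3 and 9 without WT TAC replicate 2, WT sham replicate 2, cKO TAC replicate 2 or 4, or cKO sham replicate 2.

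Of 72 nuclear genes for the respiratory chain and ATP synthase, 28 fell and 0 rose, and 71 of the 72 estimates were below 0 (median log2 -0.31). That is 38.9% called, against 9.00% of all tested genes. Within TAC 9 were called lower and 0 higher, and within sham 0 were called in either direction. Cox7a1, the muscle form of a cytochrome oxidase subunit, had the largest fall, to 0.624 of the WT value (log2 -0.68, SE 0.15, adjusted p = 0.0121), from 505, 418, 360 and 302 CPM to 282, 283, 304 and 288 CPM under sham and from 214, 282, 355 and 230 CPM to 103, 123, 212 and 138 CPM under TAC. Under sham, cKO replicate 3 just exceeded WT replicate 4 for Cox7a1, and under TAC cKO replicate 3 lay close to WT replicate 1. Falls were also called for Uqcrc1 of complex III (0.742), Atp5g3 and Atp5l of ATP synthase (0.741 and 0.759), Ndufs4 of complex I (log2 -0.43) and Sdhc of complex II (-0.32). The size of this list's count depended on 14 of the 16 libraries. It was 8 without WT TAC replicate 3, 9 without WT TAC replicate 2, cKO TAC replicate 2 or cKO sham replicate 2, 10 without cKO TAC replicate 1 or 4, 11 without cKO sham replicate 4, 16 without WT TAC replicate 4, 17 without WT sham replicate 1, 18 without WT sham replicate 2 or cKO sham replicate 1, 43 without cKO sham replicate 3, 47 without WT sham replicate 3 and 51 without cKO TAC replicate 3.

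None of the 13 mitochondrially encoded subunits was called by edgeR, DESeq2 or limma voom, and 2 had an unadjusted p under 0.05, although 12 of 13 estimates were below 0 (median log2 -0.17). mt-Nd1 had the smallest p (log2 -0.25, SE 0.11, adjusted p = 0.159). The mitochondrially encoded share of all counts ran from 17.1 to 25.8% in WT and from 16.1 to 24.1% in cKO, with 20.4% in cKO TAC replicate 3 and 16.1 to 16.3% in the other cKO TAC libraries. Summed cardiomyocyte markers ran from 73091 to 83397 CPM in WT and from 59393 to 85579 CPM in cKO, and 2 of the 12 (Tnni3 and Pln) were called lower. The part of these shares in the metabolic falls was not tested.

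Regulators of mitochondrial content showed 8 falls and 0 rises among 28 tested (28.6% called, against 9.00% of all tested genes). Perm1, a muscle regulator of oxidative genes, fell to 0.750 (adjusted p = 0.0113), the nuclear receptors Esrra and Esrrg, which drive oxidative genes with Ppargc1a, to 0.821 and 0.779, and the chaperone Hspd1 to 0.811. Esrrg was not called without WT TAC replicate 3 (adjusted p = 0.0583), nor without the 2 atrial-rich WT libraries (adjusted p = 0.0634). Tfam, which packs mitochondrial DNA, fell by 0.23 and the fusion gene Mfn1 by 0.21. The count was 3 without WT TAC replicate 3, 4 without WT TAC replicate 2, cKO TAC replicate 1 or cKO sham replicate 2 or 4, and 5 without WT sham replicate 4 or cKO TAC replicate 2 or 4. Ppargc1a itself did not pass (log2 -0.85, SE 0.31, adjusted p = 0.107). Under TAC the WT libraries held 104, 121, 122 and 138 CPM and the cKO libraries 58.2, 46.7, 56.2 and 46.9 CPM, while under sham WT held 68.0, 332, 74.1 and 99.8 CPM and cKO 151, 77.6, 75.0 and 105 CPM. The genotypes were apart under TAC and overlapped under sham, where WT sham replicate 2 stood far above the others.

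**Figure D3:**
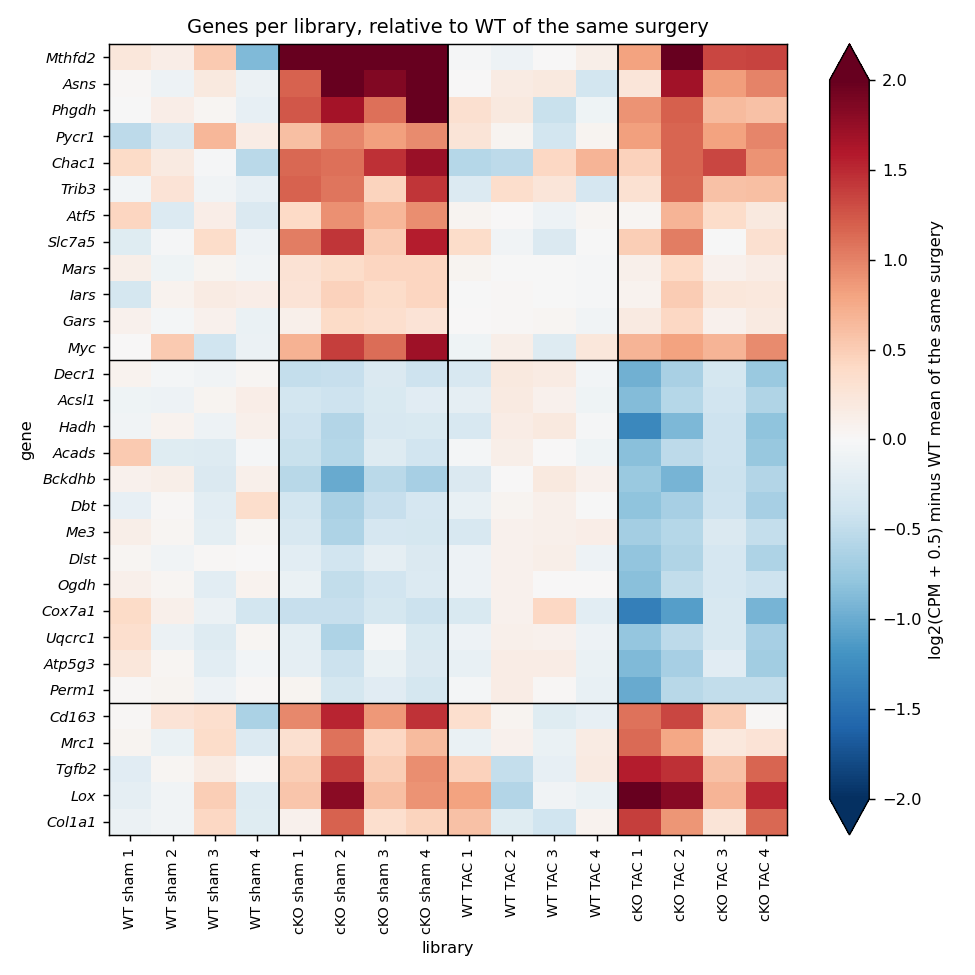
Rows are 30 genes of amino acid synthesis and stress (top), fuel use and mitochondria (middle) and macrophages and matrix (bottom), columns are the 16 libraries, and colour gives log2(CPM + 0.5) minus the WT mean of the same surgery, cut at 2 in each direction. The cKO columns of both surgeries are mostly red in the top and bottom blocks and blue in the middle block, and cKO TAC replicate 3 is the palest of its group for most genes of the middle block.

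Genes of glucose use moved both ways, with 6 of 37 higher and 4 lower (27% called, against 9.00% of all tested genes). Pfkfb1 and Fbp2 had the large falls: Pfkfb1, which sets fructose 2,6-bisphosphate, fell to 0.283 (adjusted p = 0.00117) and Fbp2, the muscle fructose bisphosphatase, to 0.446 (adjusted p = 0.000202). Fbp2 held 21.8 to 28.1 CPM in the 4 libraries of WT sham, 10.3, 10.5, 17.9 and 12.4 CPM in cKO sham, 9.70, 16.5, 15.1 and 16.4 CPM in WT TAC and 3.91, 5.31, 7.19 and 5.93 CPM in cKO TAC, with no overlap. Hexokinase 1 (Hk1), the first enzyme of glycolysis, rose 1.28-fold (adjusted p = 0.00256) from 224 ± 26.0 to 277 ± 19.0 CPM under sham and from 219 ± 12.2 to 290 ± 7.82 CPM under TAC, and Ppp1r3a, which targets a phosphatase to glycogen, rose 1.44-fold. Pfkp, Eno1, Pgd and Gyg also rose (log2 0.51, 0.31, 0.25 and 0.23). Without the 2 atrial-rich WT libraries 3 of the list were higher and 4 lower. Synthesis of sterols and lipid droplets had 3 falls of 28, the largest in squalene synthase, Fdft1 (0.663, adjusted p = 0.00752), and 0 rises. That share (10.7%) was near the 9.00% of all tested genes.

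Lysosomal genes, the textbook targets of TFEB, did not fall as a group. Of 58 tested hydrolases and membrane proteins 4 rose and 1 fell, near the share of all tested genes, and the median log2 fold change was 0.11 with 49 of 58 estimates above 0. Lipa, the acid lipase, rose 1.26-fold, Asah1, the acid ceramidase, 1.18-fold, and the cysteine proteases Ctsk and Ctss rose by 0.57 and 0.65 on the log2 scale. Laptm4b, a membrane protein of late endosomes, fell to 0.847 (adjusted p = 0.0189) but was not called without the 2 atrial-rich WT libraries (0.0643). The 4 rises were fragile. The count of rises was 0 without WT TAC replicate 2 or 3, cKO TAC replicate 1 or cKO sham replicate 2, 1 without cKO TAC replicate 2 or 4, 2 without WT sham replicate 2 and 7 without WT sham replicate 1. Macrophages, whose summed markers were higher in cKO, also express Ctss, Lipa and Asah1, and their part in these values was not tested.

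The CLEAR motif TCACGTGA was present in 8 of 50 promoters of the lysosomal list (16.0%) and in 16.7% of 18 promoters of the vacuolar ATPase list, against 1.71% of the 13878 promoters of tested genes. It was present in 0.93% of promoters of genes called higher and in 0.579% of those called lower. The shorter E-box CACGTG, which the CLEAR motif contains, was present in 9.65% of promoters of tested genes, 9.3% of those called higher and 7.96% of those called lower. Promoters of 4 genes with the CLEAR motif in the bases before the start show the sequence beside genes whose levels did not pass. The windows in GRCm38.p6 are chr7:142387889-142387956 (minus strand) for the protease Ctsd, chr8:3500443-3500510 (plus) for the calcium channel Mcoln1, chr2:164833730-164833772 (plus) for the protective protein Ctsa and chr16:44139354-44139421 (minus) for Atp6v1a, the catalytic subunit of the proton pump. Capitals mark the motif.
Ctsd: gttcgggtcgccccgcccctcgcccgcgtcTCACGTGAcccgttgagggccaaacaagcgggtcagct
Mcoln1: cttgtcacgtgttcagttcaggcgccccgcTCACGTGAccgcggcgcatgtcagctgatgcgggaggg
Ctsa: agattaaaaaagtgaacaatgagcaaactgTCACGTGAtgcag
Atp6v1a: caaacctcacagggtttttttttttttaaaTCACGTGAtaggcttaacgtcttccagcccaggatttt

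The log2 fold changes of these 4 genes were 0.16 (SE 0.13) for Ctsd, 0.09 (SE 0.05) for Mcoln1, 0.12 (SE 0.07) for Ctsa and 0.02 (SE 0.08) for Atp6v1a. Mean levels in WT and cKO were 582 and 647 CPM for Ctsd and 31.7 and 33.8 CPM for Mcoln1. A p that misses the threshold does not show equal levels. Of 22 vacuolar ATPase and Ragulator genes, which acidify the lysosome and anchor mTORC1, 1 rose and 0 fell (4.55% called, against 9.00% of all tested genes). The rise was Atp6ap1 (1.13-fold, adjusted p = 0.0367). That call was lost without any of 10 single libraries, with an adjusted p of up to 0.0879 without cKO TAC replicate 1.

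Of 57 autophagy genes, 1 rose, 2 fell and 54 were not called, with 5.26% called against 9.00% of all tested genes and a median of 0.01. Atg13, a subunit of the complex that starts autophagosomes, rose 1.30-fold (log2 0.38, SE 0.08, adjusted p = 0.00838) from 76.8 ± 6.86 to 102 ± 12.1 CPM under sham and from 75.5 ± 4.33 to 96.1 ± 17.6 CPM under TAC. Pink1, the kinase that marks damaged mitochondria, fell to 0.781 and the fusion protein Vamp8 to 0.810. Each of these falls was lost without any of 10 single libraries, with adjusted p-values of up to 0.0808 (Pink1, without cKO sham replicate 2) and 0.0883 (Vamp8, without cKO TAC replicate 2). The autophagy receptor Sqstm1 had a log2 fold change of 0.19 (SE 0.07, adjusted p = 0.122) and Lamp1, a main lysosomal membrane protein, 0.06 (SE 0.05).

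Markers of hypertrophy, which return to fetal levels in a loaded heart, rose for 6 of 24 tested genes and fell for 2 (33.3% called, against 9.00% of all tested genes). Nppb, the B-type natriuretic peptide that ventricles release on stretch, rose 2.47-fold (log2 1.30, SE 0.31, adjusted p = 0.0196). The WT sham libraries held 32.4, 101, 223 and 120 CPM and the cKO sham libraries 284, 462, 450 and 373 CPM. The WT TAC libraries held 707, 459, 457 and 329 CPM and the cKO TAC libraries 927, 1126, 794 and 769 CPM. Every cKO sham library thus exceeded every WT sham library, a condition of naming by size, and cKO sham reached into the range of WT TAC. Myh7, the slow myosin heavy chain of the fetal heart, rose 1.93-fold (log2 0.95, SE 0.19, adjusted p = 0.00725), and Ccn2, a matricellular growth factor, 2.68-fold (log2 1.42, SE 0.27, adjusted p = 0.00632). Myh7 held 361, 448, 291 and 306 CPM in WT sham, 581, 797, 432 and 640 CPM in cKO sham, 1971, 891, 921 and 1135 CPM in WT TAC and 3206, 2531, 1568 and 3210 CPM in cKO TAC, with an overlap in each surgery. Ankrd1, Xirp2 and Actn1, stress-responsive proteins of the cytoskeleton, rose by 0.92, 0.69 and 0.40. The number of rises was 3 without WT TAC replicate 3 or cKO TAC replicate 2.

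Nppa, the atrial natriuretic peptide, is also an atrial transcript and did not pass over all libraries (log2 1.20, SE 0.76, adjusted p = 0.364). WT sham held 14.1, 49.1, 1221 and 54.8 CPM, cKO sham 261, 671, 496 and 481 CPM, WT TAC 642, 162, 250 and 533 CPM and cKO TAC 1933, 1490, 960 and 1509 CPM. The value of 1221 CPM was in the WT sham library that was also highest for Myl7. Without the 2 atrial-rich WT libraries the log2 fold change of Nppa was 2.79 (adjusted p = 0.00731). These libraries were chosen among WT only, by a sum that includes Nppa, and held 1221 and 533 CPM of it. Leaving them out raises the estimate for Nppa by construction, so this value is no test of that gene. The other 2 called members of the hypertrophy list, Myl7 and Myl4, were lower in cKO, and both are atrial light chains. Myl4 had an adjusted p of 0.0282 over all libraries and 0.136 without those 2.

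In the list of contraction and calcium handling 6 of 33 fell and 1 rose (21.2% called, against 9.00% of all tested genes). Desmin (Des), the intermediate filament of muscle, rose 1.49-fold (adjusted p = 0.00256) from 2134 to 3058 CPM on average under sham and from 3014 to 4694 CPM under TAC. The alpha-actinin of the Z-disc, Actn2, fell to 0.813, the L-type calcium channel Cacna1c to 0.827, cardiac troponin I (Tnni3) to 0.673, the calcium pump Atp2a2 to 0.803 and its inhibitor Pln to 0.758. The sixth, sarcolipin (Sln), is an atrial transcript. Pln was not called in 11 of the 16 fits that left out a library, with an adjusted p of up to 0.102 without WT TAC replicate 3. The count of falls was 3 without cKO TAC replicate 2 or 4 or cKO sham replicate 4.

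Among 33 ion channel genes 7 fell and 1 rose (24.2% called, against 9.00% of all tested genes). Besides Clcn1, falls were called for Kcnj3 (0.394, adjusted p = 0.00536), a muscarinic potassium channel subunit abundant in atria, the pacemaker channel Hcn4 (0.615), Kcne1, Kcnv2, Kcnk3 and Kcnj11. The log2 fold change of Kcnj3 was -1.34 over all libraries and -1.08 without the 2 atrial-rich WT libraries. The count of falls was 4 without cKO TAC replicate 1 or 2 or cKO sham replicate 2, and 5 without the 2 atrial-rich WT libraries. With atrial transcripts as a covariate it was 7. With those other than Nppa as a covariate it was 3, and Hcn4 was not called. Of 24 cardiac transcription factors, Foxo6 fell to 0.381 and Irx4, a factor of ventricular identity, to 0.725, and 0 rose. That share (8.33%) was near the 9.00% of all tested genes.

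Growth and survival genes had 8 rises and 0 falls among 34 (23.5% called, against 9.00% of all tested genes). Myc, a driver of growth and ribosome production, rose 2.07-fold (log2 1.05, SE 0.16, adjusted p = 0.000846), from 2.91, 4.40, 2.07 and 2.63 CPM to 5.02, 8.35, 6.85 and 10.5 CPM under sham and from 7.44, 8.63, 6.48 and 9.27 CPM to 12.9, 14.1, 13.0 and 15.7 CPM under TAC. The p53 targets Phlda3, Cdkn1a and Mdm2 rose by 0.90, 0.83 and 0.21, and the survival factor Bcl2 rose 1.56-fold. Igfbp7 (1.38-fold), Etv5 and Mxd4 made up the rest. Without WT TAC replicate 2 the count was 5. In the antioxidant list, the metal-binding protein Mt2 rose 3.21-fold and Sod2, the superoxide dismutase of mitochondria, fell to 0.779, and 30 of 32 were not called (6.25% called, against 9.00% of all tested genes). There were 2 rises without WT sham replicate 1 or 3 or cKO sham replicate 3, 2 falls without WT TAC replicate 1, WT sham replicate 1, 3 or 4, cKO TAC replicate 1 or cKO sham replicate 4, and 3 falls without cKO TAC replicate 3 or cKO sham replicate 3. Trim63, a ubiquitin ligase of muscle atrophy, fell to 0.786, the 1 call in 33 genes of its list (2 without WT sham replicate 1 or cKO sham replicate 3). That share (3.03%) was below the 9.00% of all tested genes.

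Of 51 tested matrix genes, 18 were higher, 0 lower and 33 not called (35.3% called, against 9.00% of all tested genes). Of the estimates, 48 were above 0, and the median was 0.56 on the log2 scale. Lox, which cross-links collagen, rose 2.89-fold (log2 1.53, SE 0.34, adjusted p = 0.0140), and Tgfb2, a fibrogenic growth factor, 2.08-fold (log2 1.06, SE 0.18, adjusted p = 0.00256). Tgfb2 held 13.4, 16.2, 17.7 and 16.1 CPM in WT sham, 22.5, 42.1, 22.3 and 30.5 CPM in cKO sham, 48.7, 25.1, 31.3 and 40.2 CPM in WT TAC and 105, 97.8, 53.3 and 79.1 CPM in cKO TAC, with no overlap within a surgery. Adamts2, which trims procollagens, rose 1.70-fold. The collagens Col1a1, Col1a2 and Col3a1 rose by 0.74, 0.73 and 0.84, Tnc by 1.47 and Col8a1 by 1.15. This count leaned on single libraries. It was 7 without WT TAC replicate 3, 8 without WT TAC replicate 2, cKO TAC replicate 2 or cKO sham replicate 2, 9 without WT sham replicate 1 or cKO TAC replicate 1 or 4, 10 without WT sham replicate 4, 11 without WT TAC replicate 4 and 27 without WT sham replicate 3.

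Of 16 fibroblast markers 3 rose (Pdgfra 1.33-fold, Dpep1 1.42-fold and Pi16) and 2 fell (Wif1 and Ccl11), with 31.2% called against 9.00% of all tested genes. The summed level of the fibroblast markers averaged 1816 CPM in WT and 1980 CPM in cKO, with a range of 1377 to 2867 in WT and 1618 to 2240 in cKO. Without WT sham replicate 3 the rises numbered 6. Endothelial and mural markers had 1 rise and 2 falls among 26 (11.5% called, against 9.00% of all tested genes). The rise was lost without any of 12 single libraries, all but WT TAC replicate 1, cKO TAC replicates 3 and 4 and cKO sham replicate 3. The falls numbered 1 without WT TAC replicate 3, WT sham replicate 3 or 4, cKO TAC replicate 4, or cKO sham replicate 2, 3 or 4. Angpt1, a ligand that stabilises vessels, fell to 0.424 (adjusted p = 0.0135), with means of 53.5 and 15.6 CPM in WT and cKO sham and 15.5 and 9.95 CPM under TAC. Of 10 tested atrial cardiomyocyte markers 5 fell and 0 rose (50% called, against 9.00% of all tested genes). There were 3 falls without cKO TAC replicate 1, 2 or 4 or cKO sham replicate 1 or 4, and 1 rise without WT sham replicate 3.

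Of 21 macrophage and monocyte markers, 11 were higher and 0 lower (52.4% called, against 9.00% of all tested genes, median log2 0.49). The scavenger receptors Cd163 and Mrc1 rose 2.01-fold (adjusted p = 0.00594) and 1.57-fold (0.0107), the Fc receptor Fcgr1 1.65-fold and F13a1, a transglutaminase, 1.61-fold. Cd163 held 14.1, 16.9, 17.7 and 8.74 CPM in WT sham against 27.5, 40.6, 25.8 and 38.4 CPM in cKO sham, and 27.2, 22.3, 18.1 and 19.0 CPM in WT TAC and 46.2, 54.6, 30.6 and 21.6 CPM in cKO TAC. Its genotypes were apart under sham and overlapped under TAC through cKO TAC replicate 4. Csf1r, Adgre1, C1qc, Lyz2, Cd14, Ccr2 and Trem2 were also higher. The count was 5 without WT TAC replicate 3 or cKO TAC replicate 1, 6 without cKO sham replicate 2 and 7 without WT TAC replicate 2 or WT sham replicate 4. Timd4, a transcript of resident macrophages found at low levels, was lower in every cKO sham library than in any WT sham library. Its genotypes overlapped under TAC. Whether resident or other macrophages account for the rises was not tested. None of the 5 tested markers of other leukocytes was called by edgeR or limma voom with all libraries (1 by the DESeq2 Wald test, 2 at an unadjusted p under 0.05). With edgeR 2 were higher without cKO TAC replicate 3, and 1 was without WT TAC replicate 1 or 4, WT sham replicate 1, 2 or 3, cKO TAC replicate 2, or cKO sham replicate 1, 3 or 4. With all libraries the pan-leukocyte gene Ptprc was nearest (log2 0.47, SE 0.16, adjusted p = 0.0641). T-cell genes were near 0, with Cd3e at no more than 0.574 CPM in any library.

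With all libraries, several groups showed no call by edgeR in either direction: 19 clock genes, 34 of the interferon response, 32 of the cell cycle and 9 of red cells, Schwann cells and adipocytes. At an unadjusted p under 0.05 they held 2, 6, 2 and 1 genes, and the DESeq2 Wald test called 0, 3, 0 and 1 of them and limma voom 0 of each. The nearest members were Bhlhe41 (log2 0.34, adjusted p = 0.139), Parp14 (-0.20, 0.0520), Mcm5 (-0.33, 0.104) and Hba-a2 (-1.09, 0.110). Without the 2 atrial-rich WT libraries Mcm5 was called lower (log2 -0.43, adjusted p = 0.0370). Leaving out single libraries also gave edgeR calls. In the interferon list 2 genes were higher without WT TAC replicate 1 or cKO TAC replicate 3, 2 were lower without WT sham replicate 1, and 1 was lower without WT TAC replicate 4 or WT sham replicate 2. In the clock list 1 was higher without WT sham replicate 4 or cKO sham replicate 3, in the cell cycle list 1 was lower without WT TAC replicate 4, and among red cell, Schwann cell and adipocyte markers 1 was lower without WT TAC replicate 1 or 3 or WT sham replicate 1.

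**Figure D4:**
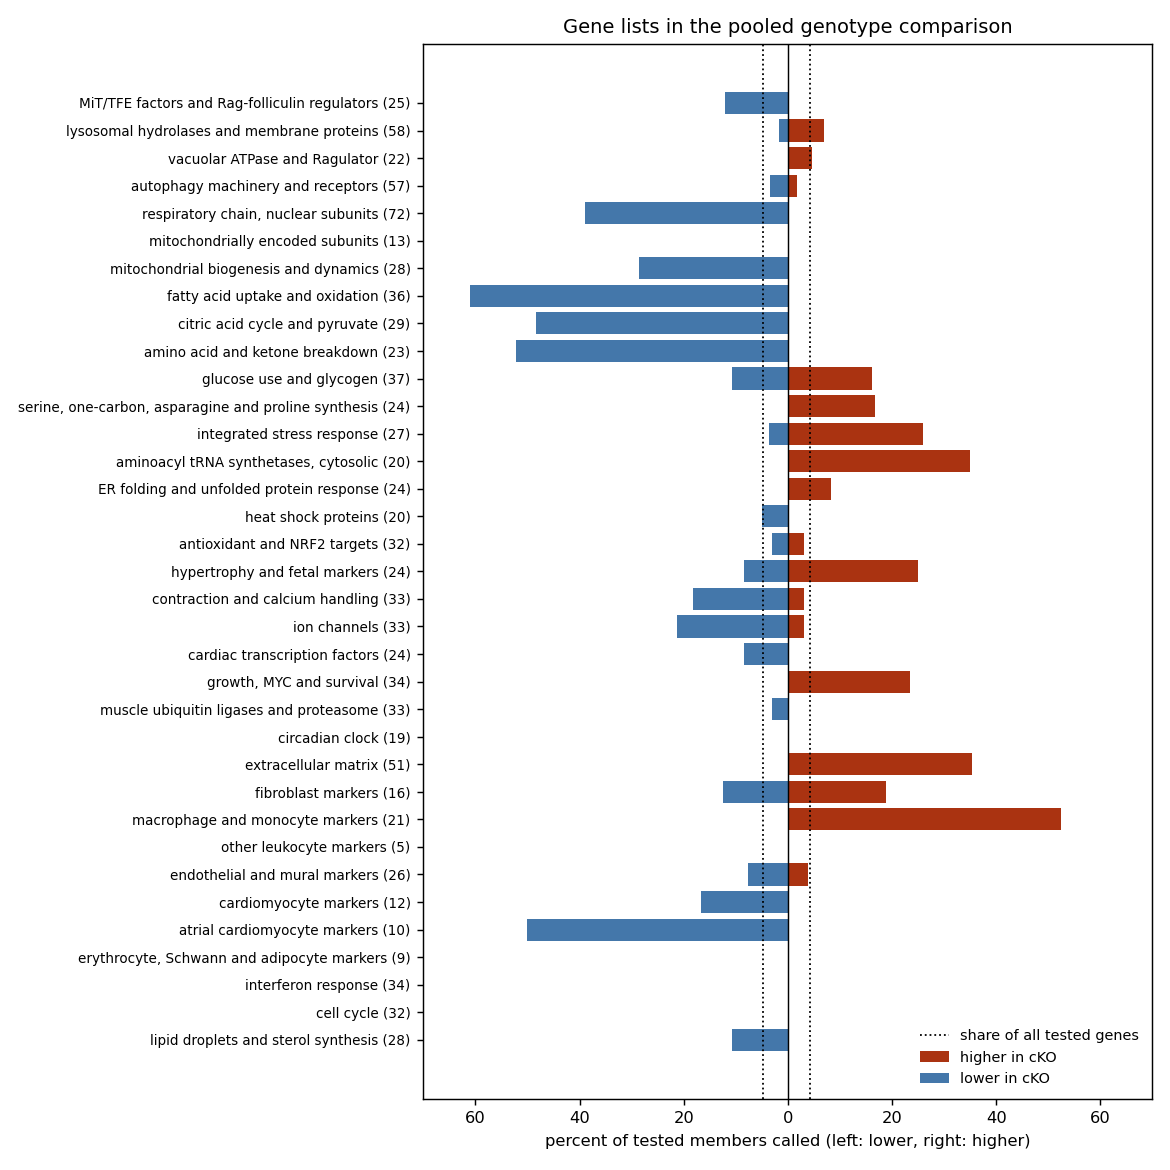
Bars give the percent of tested members called higher (right) or lower (left) in cKO in each of 35 gene lists, with the number tested in brackets, and dotted lines mark the 4.29% and 4.71% of all tested genes called in each direction. Fatty acid, amino acid, citric acid cycle and atrial lists reach furthest to the left, macrophage markers, matrix and tRNA synthetases furthest to the right, and lysosome and autophagy stay near the lines.

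Because sham and TAC libraries are separate, the genotype effect can be read in each independently. The signs matched in 65.9% of all tested genes, and the estimates correlated across 15206 genes with Pearson's r = 0.564 and Spearman's rho = 0.457, where genes are not independent replicates and both sets share a normalization and a common spread estimate. Of the 178 genes called within sham 168 (94.4%) had the same sign within TAC, with a median size of 0.86 under sham and 0.47 under TAC. Of the 271 called within TAC 263 (97.0%) had the same sign within sham, with median sizes of 0.64 and 0.32. In both cases the genes were chosen in the surgery where they are larger.

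Some lists differed in their medians between surgeries. Fatty acid genes had a median of -0.22 under sham and -0.45 under TAC, the nuclear respiratory genes -0.19 and -0.45, and the matrix list 0.33 and 0.76, while macrophage markers had 0.58 and 0.45. No gene passed the test of the difference between the surgeries with edgeR (smallest adjusted p = 0.801), and 715 genes (4.70%) had an unadjusted p under 0.05, with 78 of them among the 1368. The SE of that difference had a median of 0.22. With limma voom 0 genes passed, and with the DESeq2 Wald test 3 did, among them Socs3 and Cnksr1, which are named for this count and after their values were seen. Socs3, a feedback inhibitor of cytokine signalling, had edgeR estimates of 0.97 under sham and -0.52 under TAC, and the scaffold gene Cnksr1 had 1.21 and 0.09. For these genes the average over both surgeries combines unlike estimates.

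**Figure D5:**
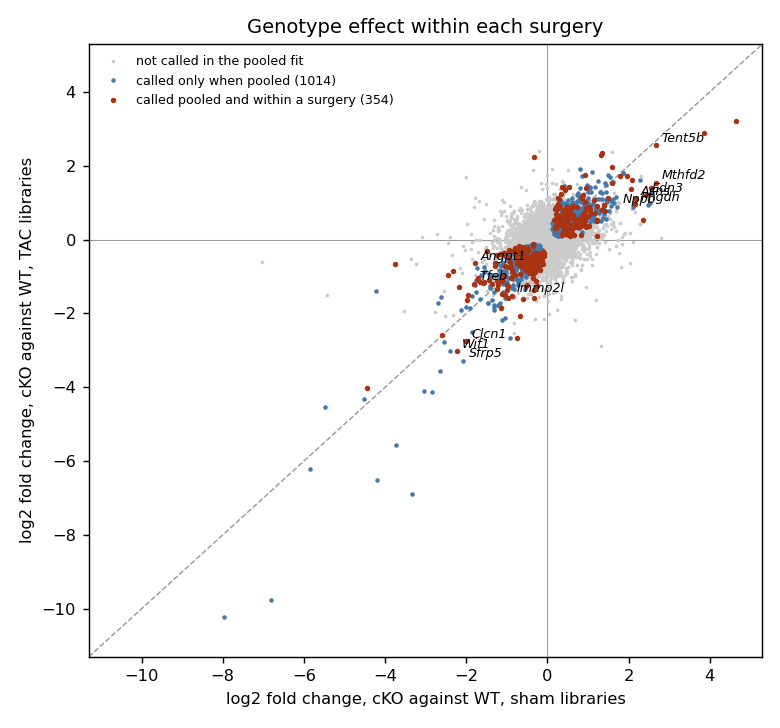
Each point is a tested gene, with the log2 fold change of cKO against WT among sham libraries on the x axis and among TAC libraries on the y axis, and a dashed line where both are equal. Most genes called in the pooled comparison lie at lower left and upper right, and Tfeb, Mthfd2 and Asns lie on the side of the larger sham effect while Immp2l lies on that of TAC.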

How the data were processed

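The authors deposited raw read counts per Ensembl gene for all 16 libraries in 1 table, not normalized. Tools credited in the submitters' processing notes are featureCounts 2.0.6, SAMtools 1.21, HISAT2 2.0.5, fastp 0.22.0 and FastQC, with GRCm39 as the build. Strandedness, annotation release and the handling of multi-mapping reads are not given in the sources used here, so overlapping, antisense and near-identical genes are uncertain. Of 57186 gene IDs, 51880 (99.5% of counts) took their symbol from a GRCm38 gene table, whose older symbols are used. Coordinates are those of the RefSeq promoter table.

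The test was run with edgeR 4.0.16 (R 4.3.3): filterByExpr over the 4 groups, TMM factors and a robust quasi-likelihood fit of surgery plus genotype over every library, with 13 degrees of freedom left. Effects within each surgery and the interaction came from a fit with 1 mean per group (12 degrees of freedom). Each SE is the estimate divided by the root of its F statistic. P-values were adjusted by Benjamini-Hochberg over 15206 genes, and the biological coefficient of variation was 16.5%. Totals of 12946878 to 16347388 counts leave little counting error above a few CPM. Library properties were compared by two-sided exact permutation of genotype within each surgery (4900 relabelings). The fit was tested on simulated counts.

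The members and the 35 gene lists were chosen with earlier results of these data known. Named genes are Tfeb, Tfe3, Mitf, Ppargc1a, Nppa, Nppb, Myh7 and Immp2l, the 12 largest rises and falls among called genes of at least 5 CPM in either genotype with no overlap within sham and within TAC (predicted genes and pseudogenes skipped), and up to 4 called genes per list, by smallest adjusted p, or the member with the smallest p where none was called. Other genes are further members of the lists or were chosen after their values were seen. Alternatives were DESeq2 1.42.0, limma 3.58.1 voom, other scalings and filters, replicate blocks, single surgeries, atrial transcripts as a covariate, and leaving out libraries. Some genes covered by the rule are not reported here.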

Additional observations from a re-analysis of the deposited data

Results flagged for a closer look

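Single libraries stood apart from the other 3 of their group, with a gap past Dixon's 95% critical value, a test that flags about 1 in 20 groups by chance. It was met by 13 of the 160 sets of 4 libraries examined. WT sham replicate 3 was high in atrial transcripts: Nppa held 1220 CPM against 14.1 to 54.8 CPM in the other WT sham libraries, the summed atrial markers 4250 CPM against 199 to 515 CPM, and the same sum without Nppa 3030 CPM against 186 to 469 CPM. WT TAC replicate 4 was high in atrial markers without Nppa (1190 CPM against 91.6 to 141 CPM), in summed fibroblast markers (2870 CPM against 1380 to 1620 CPM) and in Wif1 (21.3 CPM against 2.92 to 5.25 CPM).

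WT sham replicate 2 held Ppargc1a at 332 CPM against 68.0 to 99.8 CPM in its group. WT TAC replicate 3 held Abca4 at 8.81 CPM against 5.83 to 6.25 CPM. In cKO sham, replicate 2 held Sfrp5 at 0.194 CPM against 2.01 to 2.16 CPM and summed markers of other leukocytes at 28.7 CPM against 14.8 to 16.7 CPM, and replicate 3 held summed endothelial and mural markers at 2700 CPM against 3150 to 3240 CPM. In cKO TAC, replicate 2 held Mitf at 23.1 CPM against 26.7 to 27.4 CPM, and replicate 3 had a mitochondrially encoded share of 20.4% against 16.1 to 16.3%.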

How the results depend on the processing

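Of the 1368 calls (652 higher and 716 lower), DESeq2 size factors gave 1361, library totals 1400, testing genes of any level 1211, asking 1 CPM in 4 libraries 1387, limma voom 1386, the DESeq2 Wald test 1904, atrial transcripts as a covariate 1029 and, added after seeing the data, those other than Nppa as a covariate 1579. Without the surgery covariate 157 were called (92 higher, 65 lower), in the sham libraries alone 146 (73 and 73) and in the TAC libraries alone 152 (73 and 79), where fewer samples enter. Leaving out each library in turn gave 816 to 1677 calls, 378 to 783 higher and 438 to 894 lower. Replicate numbers did not pair the libraries: same-numbered deviations correlated from -0.04 to 0.23. A replicate block by number gave 1304 calls and 1 block per surgery and number 1463. Replicate number added to the fit of group means gave 235 calls within sham, 302 within TAC and 0 for the interaction. Within TAC (271) the count was 438 when low genes were kept and 165 without the 2 atrial-rich WT libraries (added later). At an adjusted p under 0.01 it was 39 within sham and 13 within TAC, and DESeq2 (added later) called 3 for the interaction. The cause of these shifts was not tested. Of 107 called named genes, 93 kept their call in every fit that left out 1 library, and 4 kept it under all 32 alternatives. Most were named for a small p or for genotypes that did not overlap, which favours keeping a call. The 93 therefore say little about the 1368 calls as a whole. The median of the vacuolar ATPase list turned from -0.02 to 0.043 with library totals, and Myl4 from -5.03 to 0.11 with atrial transcripts other than Nppa as a covariate. That covariate sums only Myl7, Myl4, Sln and Bmp10. It holds Myl4 itself, so the shift of Myl4 was fixed in advance and tests nothing about that gene. Depth limits genes of a few CPM, such as Phgdh, and 4 libraries a group limit the test of the interaction, whose median SE was 0.22.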

Other observations

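Nnt, the mitochondrial nicotinamide nucleotide transhydrogenase, was listed at 0.822 to 3.55 CPM (library totals) in all 16 libraries, although the strain is labelled C57/BL6N. Mice of the related C57BL/6J strain carry a deletion within Nnt, and the strain behind these libraries was not tested. The Y-linked gene Ddx3y had at least 833 counts in every library and Xist at most 5.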
